A study of Mus musculus with 6 samples.

Results

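GABA-A receptor subunit genes were followed in the prefrontal cortex of 8 week old mice, in 3 RNA sequencing libraries of mice heterozygous for the 16p11.2 duplication and 3 of wild type mice. The 7 genes, chosen by name from the receptor family, were Gabra2, Gabra3, Gabra4, Gabra5, Gabrb1, Gabrb2 and Gabrd, out of 45482 lines of the count table that could be given a gene name. The duplication is a gain of the human 16p11.2 segment, modelled in the mouse by an extra copy of the matching stretch of chromosome 7. Both genotypes were on a C57BL/6 background, the line having been made on a mix of C57BL/6N and 129Sv and then backcrossed for 10 generations. RNA came from tissue homogenate, so all cell types of the dissected cortex contribute, and fewer cells of a type cannot be told apart from less RNA per cell. The labels give no sex. Replicate 1 of each genotype had 0 counts of Xist and 2147 (duplication) or 982 (wild type) of the Y-linked gene Ddx3y. Replicates 2 and 3 had 2090 to 3531 counts of Xist. Ddx3y had 77 (duplication) and 71 (wild type) counts in replicate 2, against 5 and 0 in replicate 3. Where the Ddx3y counts of replicate 2 came from was not tested. Of 24 tested protein-coding genes in the duplicated segment, taken here as Slx1b to Spn, 23 had a positive log2 fold change of duplication over wild type, with a median of 0.75, and for 20 the 3 duplication libraries were above the 3 wild type libraries. The latter held for 11.7% of all tested genes.

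GABA-A receptors are chloride channels opened by GABA, the main inhibitory transmitter of the cortex, and are built as pentamers of mostly alpha and beta subunits with a gamma or delta subunit. The alpha subunit sets much of a receptor's place and pharmacology. Receptors with alpha 2 or alpha 3 are found mostly at synapses, whereas alpha 4 with delta and alpha 5 are known from receptors outside synapses that carry tonic inhibition. The beta subunits hold the GABA binding site together with alpha and are needed for surface delivery. Npas4, named in the study's title, is a neuronal transcription factor induced by activity that regulates the number of inhibitory synapses.

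In the deposited table, names and counts fell out of step along the file, and each gene's value depends on the offset used. Gabrb2 lay before the first slip. The counts of Gabrd, Gabra2, Gabra4 and Gabrb1 lay 2 lines after their names, those of Gabra5 3 lines and those of Gabra3 6 lines after. Around each of the 7 genes, among 255 to 490 annotated names within 250 lines on each side, log counts correlated across lines with whether the name was that of a protein-coding gene, at r = 0.58 to 0.66 with this offset and at r = 0.05 to 0.42 with an offset 1 line smaller or larger. As deposited, the 6 libraries together would have given 1 count to Gabra2, 10 to Gabra3, 38 to Gabra5 and 33 to Gabrb1, against 14396, 17260, 7118 and 23295 after re-alignment. Gabra4 would have carried the counts that belong to Gabra2, and Gabrd a total of 24320 in place of 5350. The 7 genes had 591 to 7911 counts per library, for which counting error alone is 4.1% to 1.1%. Libraries held 14750746 to 21665676 named counts in duplication and 12871326 to 14235357 in wild type mice.

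Of the 7 genes, 3 lie together on chromosome 5 and the other 4 apart. On mm10 chromosome 5, Gabra2 spans 70957597 to 71095849 and Gabra4 spans 71569749 to 71658308, both on the minus strand, and Gabrb1 spans 71658113 to 72149037 on the plus strand. Gabra4 and Gabrb1 thus stand head to head, and their first 196 bases overlap in the annotation, 46 of them exonic in both. Gabrb2 is on chromosome 11 (42419757 to 42629028, plus strand), Gabrd on chromosome 4 (155384980 to 155398112, minus strand) and Gabra3 on the X chromosome (72432681 to 72656848, minus strand). Gabra5 is on chromosome 7 (57407672 to 57510059, minus strand), 69.2 Mb below the segment matching 16p11.2, which begins at 126689468. It shares 148 exonic bases, 4.98% of its exon length, with the antisense gene Gm9962. How strand was treated in counting is not known here, so reads over these shared exonic bases cannot be assigned to one gene.

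Promoter sequences, from 250 bases before to 50 bases after the transcript start, were in RefSeq for 6 of the 7 genes (GRCm38.p6, the build also called mm10), with 10 windows in all. The window of Gabra4 and the first of Gabrb1 are shown because these neighbours had the largest differences between genotypes, in opposite directions. The window of Gabra2 and the first of Gabrb2 are shown because they held a searched motif. Capitals mark the letters TCGTG, a core bound by NPAS4 with its partner, or TGACG, the core of the cyclic AMP response element, each on either strand.
Gabra4 (chr5:71658259-71658558, minus strand): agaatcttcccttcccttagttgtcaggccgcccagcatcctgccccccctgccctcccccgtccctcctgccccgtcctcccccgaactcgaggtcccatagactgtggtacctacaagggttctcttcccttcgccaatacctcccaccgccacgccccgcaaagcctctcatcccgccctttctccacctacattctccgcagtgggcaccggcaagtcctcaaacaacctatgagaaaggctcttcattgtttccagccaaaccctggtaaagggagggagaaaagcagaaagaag
Gabrb1 (chr5:71657671-71657970, plus strand): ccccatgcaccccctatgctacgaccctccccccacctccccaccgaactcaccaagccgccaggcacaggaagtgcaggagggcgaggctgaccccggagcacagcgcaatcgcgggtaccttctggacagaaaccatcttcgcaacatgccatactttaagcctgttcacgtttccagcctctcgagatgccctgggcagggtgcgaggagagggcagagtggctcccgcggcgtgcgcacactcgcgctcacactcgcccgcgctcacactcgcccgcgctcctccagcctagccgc
Gabra2 (chr5:71095800-71096099, minus strand): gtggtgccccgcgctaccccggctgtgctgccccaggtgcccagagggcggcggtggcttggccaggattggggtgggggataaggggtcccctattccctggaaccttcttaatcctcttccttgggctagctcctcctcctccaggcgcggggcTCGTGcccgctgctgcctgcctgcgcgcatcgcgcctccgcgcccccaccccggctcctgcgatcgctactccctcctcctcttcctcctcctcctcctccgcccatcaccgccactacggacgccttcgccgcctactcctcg
Gabrb2 (chr11:42420190-42420489, plus strand): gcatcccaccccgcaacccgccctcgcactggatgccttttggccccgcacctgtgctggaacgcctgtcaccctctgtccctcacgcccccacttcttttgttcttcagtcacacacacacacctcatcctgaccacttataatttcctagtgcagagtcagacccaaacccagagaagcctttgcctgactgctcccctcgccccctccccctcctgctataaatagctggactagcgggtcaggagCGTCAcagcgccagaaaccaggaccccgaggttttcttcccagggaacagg
The RefSeq start of Gabra4 and the first of Gabrb1 overlap by 388 bases, so each of these transcripts begins inside the other gene. Neither window shown for this pair holds either set of letters. Their base composition differed, with 12 CpG dinucleotides and 58.7% G or C in the Gabra4 window and 25 and 66.0% in the Gabrb1 window shown. A further Gabrb1 window, at chr5:71699682-71699981 and beyond the span of Gabra4, had 9 CpG dinucleotides, 50.3% G or C and neither set of letters. The median of 32851 windows of all genes was 7 CpG dinucleotides and 52.7% G or C. Gabra2 also had 25 CpG dinucleotides, and the 2 windows of Gabra3 had 0. TCGTG was found in 16% of all windows, once in that of Gabra2 and once in each of the other 2 windows of Gabrb2, and TGACG was found in 20.8%, once in the Gabrb2 window shown. On either strand, no window of the 6 genes held the full response element TGACGTCA, which contains TGACG, found in 1.79% of all windows, nor the E-box CACGTG (7.15%), the EGR site GCGTGGGCG (0.612%) or the AP-1 site TGANTCA (7.81%).

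All 7 subunits were well expressed in cortex. Their order was the same per kilobase of merged exons and of the longest transcript, but differed per kilobase of coding sequence. By CPM, counts scaled to a common library size with TMM factors, the 7 genes ranked between position 400 and 3872 of 15403 tested genes. Per kilobase of merged exons, the mean level over the 6 libraries was 57.5 for Gabrb2, 47.3 for Gabra3, 27.01 for Gabra4, 25.6 for Gabra5, 20.2 for Gabra2, 19.6 for Gabrd and 18.5 for Gabrb1. On this scale Gabrb2 stood above Gabra3, Gabra3 above Gabra4 and Gabra5 above Gabra2 in 6 of 6 libraries with no overlap of their ranges. The neighbours Gabra4 and Gabra5, Gabra2 and Gabrd, and Gabrd and Gabrb1 overlapped. Gabrb1 has by far the longest exons of the 7, 13838 bases, of which 1422 are coding. Per kilobase of the longest transcript it was again the lowest, at 18.65. Per kilobase of coding sequence it came second at 180.1, below Gabrb2 at 238.1 and above Gabra3 at 116.1. That scale divides counts of the whole gene by its coding bases alone. On it Gabra5 and Gabrd came last at 54.7 and 41.9. Gabrb2 was highest on each of these scales. Among the alpha genes Gabra5 was lowest per coding kilobase, and Gabra2 per kilobase of exons or of the longest transcript.

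Alpha genes held the largest share of the level per kilobase of merged exons in every library. Per kilobase of coding sequence they held 47.1% ± 1.11 in duplication and 43.3% ± 1.77 in wild type libraries (SD, n = 3 each). On that scale the 2 beta genes held 47.7% ± 1.79 in duplication and 51.9% ± 2.81 in wild type libraries. This was above the alpha genes in every library but duplication replicate 1. Per kilobase of the longest transcript, alpha genes held 53.7% in duplication and 51.4% in wild type libraries, and beta genes 38.6% and 41.2%. The order of alpha and beta thus turned with coding length but not with the longest transcript. Per kilobase of merged exons, the 4 alpha genes made up 56.6%, 57.3% and 56.5% of the summed level of the 7 genes in duplication libraries 1 to 3, against 55.0%, 54.3% and 54.1% in wild type libraries 1 to 3. The 2 beta genes made up 32.7%, 33.9% and 35.1% in duplication libraries, against 36.2%, 35.0% and 38.7% in wild type libraries, and Gabrd the rest. The alpha shares of the 2 genotypes did not overlap, and the beta shares overlapped by a narrow margin. The shares sum to the whole, so a lower beta share raises the others, and these differences were not tested. Duplication minus wild type was -2.72 percentage points for beta, with Gabrb1 at -2.09 and Gabrb2 at -0.63. Gabra4, Gabra5 and Gabrd, the subunits known from receptors outside synapses, together held 34.7% ± 1.71 in duplication and 32.2% ± 2.15 in wild type libraries (SD, n = 3 each). The difference of 2.47 percentage points lay within the spread of the libraries (exact two-sided permutation test, p = 0.3, where 0.1 is the smallest that 3 against 3 allows). Of the summed level of all 19 GABA-A subunit genes in the table, the 7 genes held 50.7% ± 0.635 in duplication and 52.2% ± 0.488 in wild type libraries.

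**Figure D1:**
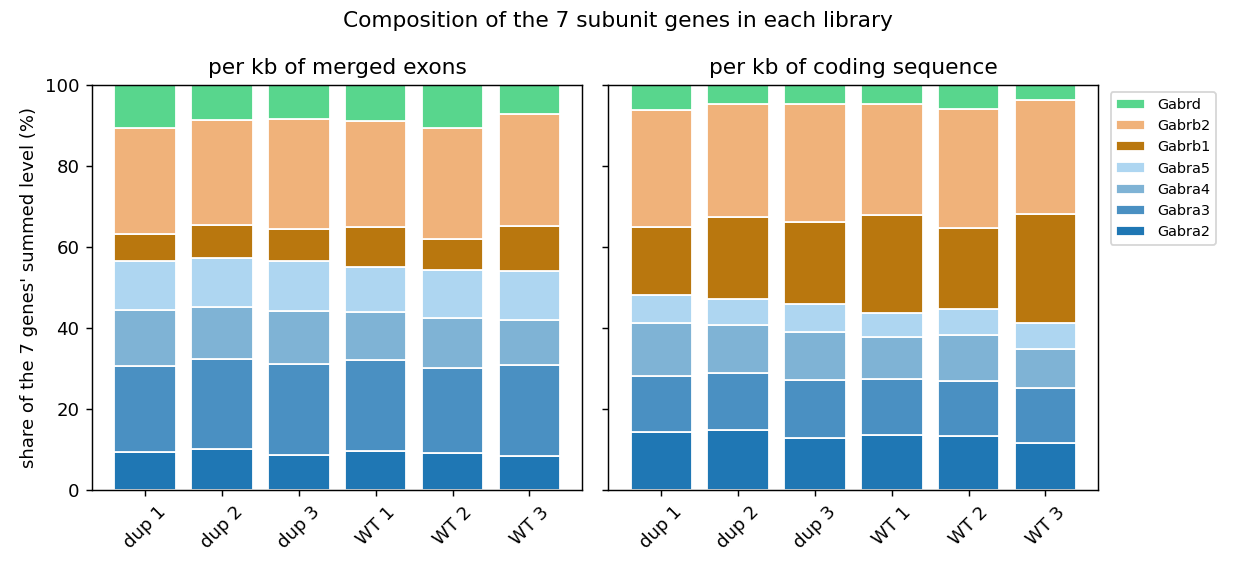
Share of each subunit gene in the summed level of the 7 genes (%) for each duplication (dup) and wild type (WT) library, with the level per kilobase of merged exons at left and per kilobase of coding sequence at right. Gabrb1 fills 6.54% to 8.06% of the left bars in duplication and 7.83% to 11.15% in wild type libraries, and 17.0% to 20.4% of the right bars in duplication and 19.9% to 26.8% in wild type libraries.

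None of the 7 genes differed between genotypes past the threshold, an edgeR adjusted p under 0.05 over all genes. The count was 0 of 7, and 0 of 15403 genes (0%) passed in either direction. At an unadjusted p under 0.05 edgeR had 1088 genes higher and 1877 lower. Among the 7 genes 2 had such a p, Gabra4 and Gabrb1, where 19.2% of all tested genes did. DESeq2 called 0 of the 7 and 2.01% of the genes for which it gave an adjusted p. The 3 duplication libraries lay above the 3 wild type libraries for 2 of 7 genes, Gabra4 and Gabra5, and below them for 0 of 7, where 11.7% and 10.5% of all tested genes did so. The median log2 fold change was 0.07 for the 7 genes and 0.0050 for all tested genes.

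Among the 4 alpha genes, Gabra4 had the largest difference. It encodes alpha 4, which with delta forms receptors of high GABA affinity outside synapses. Gabra4 had 184.2, 168.6 and 176.1 CPM in duplication libraries 1 to 3, against 156.7, 159.3 and 140.9 CPM in wild type libraries 1 to 3. Every duplication library was above every wild type library, by a mean of 176 ± 7.79 against 152 ± 9.98 CPM (SD, n = 3 each). The log2 fold change was 0.21 ± 0.07 (SE), a fold of 1.16, with a 95% interval of 0.06 to 0.37 and an edgeR adjusted p of 0.179. Without wild type replicate 2 Gabra4 was called higher (edgeR adjusted p = 0.0406), in a fit that called 4.65% of genes higher. Over 16 alternative fits its adjusted p lay between 0.0406 and 0.9997 and its log2 fold change between 0.10 and 0.28.

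Gabra2 and Gabra3, the alpha subunits found mostly at synapses, overlapped between genotypes. Gabra2 had 159.0, 168.9 and 148.1 CPM in duplication libraries, against 162.2, 150.1 and 135.2 CPM in wild type libraries. Its log2 fold change was 0.09 ± 0.08 with a 95% interval of -0.09 to 0.27. Gabra3 had 179.0, 186.9 and 192.0 CPM in duplication libraries, against 196.0, 177.0 and 182.9 CPM in wild type libraries. Here the fold change was 0.01 ± 0.06 on the log2 scale, the smallest of the 7, with an interval of -0.14 to 0.15, and it was again 0.01 with sex, read from the Xist and Y-linked counts, in the model. For this X-linked gene the library without Xist counts was the lowest of the 3 in duplication and the highest of the 3 in wild type mice.

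Gabra5, whose receptors are best known from hippocampal pyramidal cells, varied least among the alpha genes. It had 77.6, 76.3 and 79.8 CPM in duplication libraries, against 72.5, 74.5 and 75.5 CPM in wild type libraries. The groups did not overlap, yet the nearest libraries differed by less than 1 CPM, and the log2 fold change of 0.07 ± 0.06 did not pass (95% interval -0.06 to 0.20, edgeR adjusted p = 0.517).

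Of the 2 beta genes, Gabrb1 had the wider spread. Gabrb2, an abundant beta subunit of adult cortical receptors, had 360.9, 353.9 and 377.4 CPM in duplication libraries, against 368.0, 369.6 and 364.8 CPM in wild type libraries. Its log2 fold change was -0.01 ± 0.05, with an interval of -0.13 to 0.11, and took the other sign under several alternatives, none called. Gabrb1, a beta subunit that glia also express, had 196.4, 238.9 and 245.2 CPM in duplication libraries, against 303.3, 231.4 and 321.7 CPM in wild type libraries. Wild type replicate 2 lay among the duplication libraries, so the groups overlapped, with means of 227 ± 26.6 CPM in duplication and 285 ± 47.7 CPM in wild type libraries (SD, n = 3 each). The log2 fold change was -0.33 ± 0.13, with a 95% interval of -0.62 to -0.04 and an edgeR adjusted p of 0.216. Gabrb1 was called lower without wild type replicate 2 (log2 fold change -0.47, edgeR adjusted p = 0.00954, where 10.7% of all genes were called lower). It was also called lower without both libraries numbered 2 (-0.50, edgeR adjusted p = 0.0257, 7% of genes lower) and without a filter on low counts (-0.32, edgeR adjusted p = 0.0496, 3.19% of genes lower). Over 16 alternative fits its adjusted p lay between 0.00954 and 0.9997.

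Gabrd, the delta subunit of tonic receptors, was the lowest of the 7 in CPM. It had 66.6, 54.1 and 53.5 CPM in duplication libraries, against 56.0, 65.4 and 43.2 CPM in wild type libraries. Both genotypes held a library near 66 CPM, and the lowest value was that of wild type replicate 3. The log2 fold change was 0.08 ± 0.14, with an interval of -0.24 to 0.41.

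**Figure D2:**
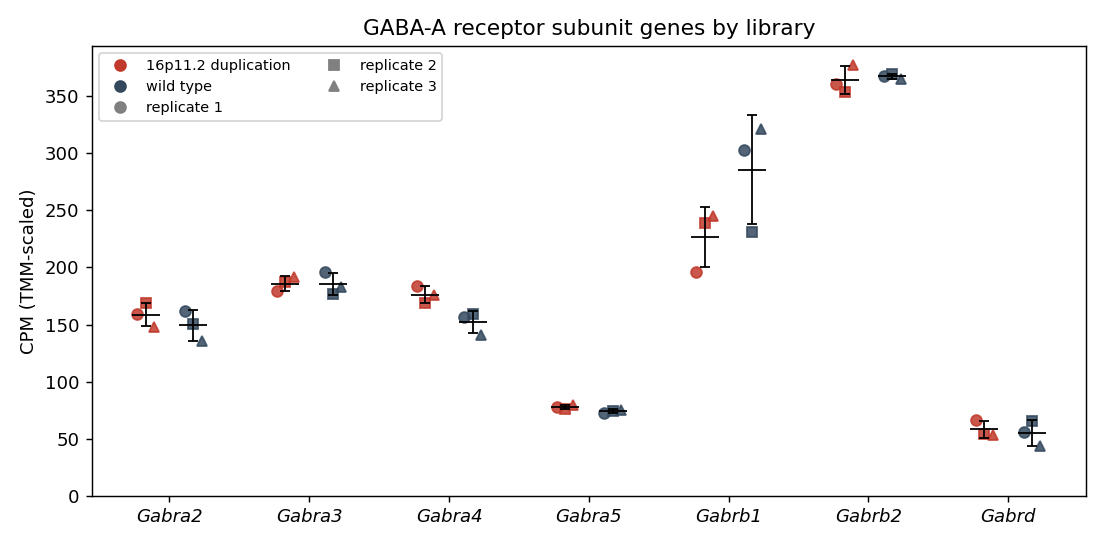
TMM-scaled CPM of the 7 subunit genes in each library, with duplication at left and wild type at right of each pair; marker shapes give the replicate, and bars give the mean and SD of 3 libraries. Gabra4 and Gabra5 have no overlap between genotypes, and Gabrb1 has the widest spread, from 196.4 to 321.7 CPM.

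The neighbours Gabra4 and Gabrb1 had fold changes of opposite sign. The first RefSeq start of Gabrb1 overlaps Gabra4 and a further one does not. Counts per gene do not tell from which start the reads came. The ratio of Gabra4 to Gabrb1 CPM was 0.938, 0.706 and 0.718 in duplication libraries, against 0.517, 0.688 and 0.438 in wild type libraries. All duplication libraries were above all wild type libraries, though wild type replicate 2 differed from duplication replicate 2 by less than 0.02. The pair was picked for this contrast, so the ratio is a description.

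A further measure, the level of transcripts annotated as TEC or sense intronic, differed between genotypes beside both genes. These classes hold unconfirmed transcripts, many of them unspliced, and transcripts inside introns. Averaged over 292 such transcripts, the level on the log2 scale around the library mean was -0.44, -0.43 and -0.12 in duplication libraries 1 to 3, against 0.47, 0.00 and 0.53 in wild type libraries 1 to 3. Wild type replicate 2, where Gabrb1 was lowest among wild type libraries and Gabra4 highest, also stood nearest to the duplication libraries in this level. In a model that included this level and kept 3 residual degrees of freedom, the log2 fold change was 0.10 ± 0.12 for Gabra4 and 0.21 ± 0.14 for Gabrb1, whose sign thus turned. Gabrd was at -0.43 ± 0.19 in that fit and did not pass (edgeR adjusted p = 0.9997 for each). No tested gene had a smaller adjusted p there, so that fit could call none. The level was lower in all 3 duplication libraries, and level and genotype cannot be told apart here.

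**Figure D3:**
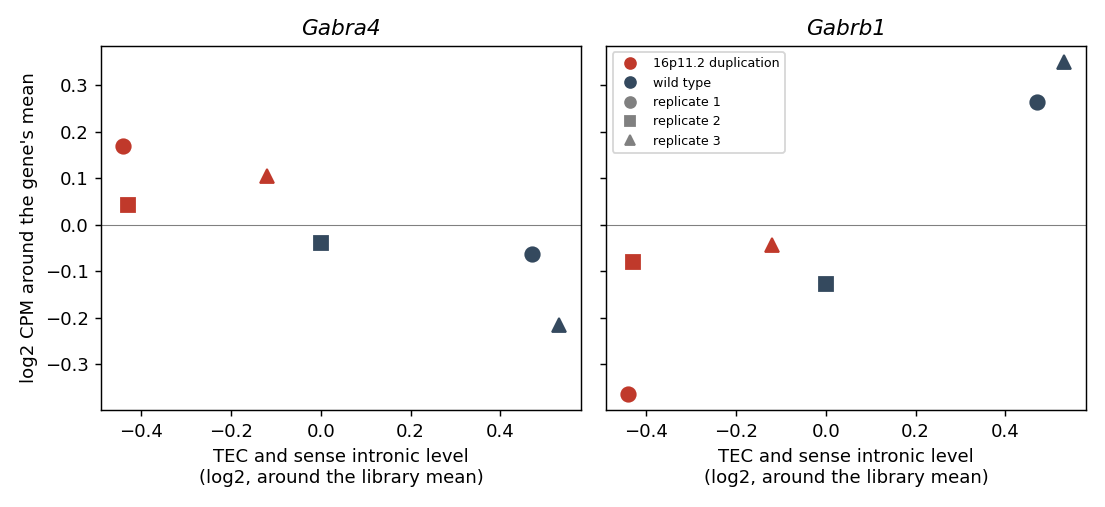
log2 CPM of Gabra4 (left) and Gabrb1 (right) around each gene's mean, against the TEC and sense intronic level (log2, around the library mean), for 3 duplication and 3 wild type libraries. Wild type replicates 1 and 3, at a level of 0.47 and 0.53, have the 2 highest Gabrb1 values, and wild type replicate 2, at 0.00, lies near the duplication libraries.

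**Figure D4:**
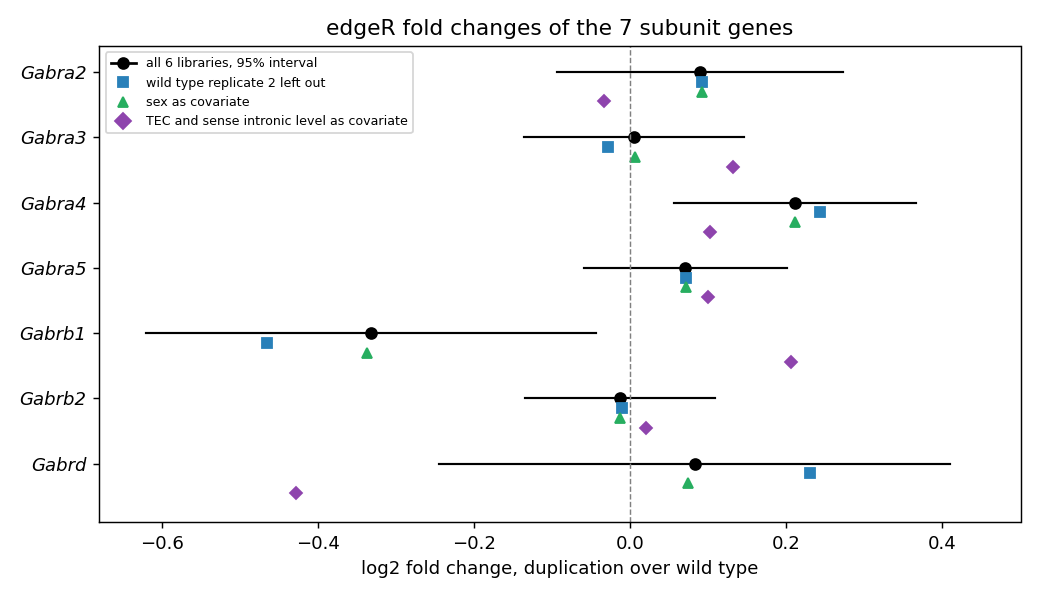
edgeR log2 fold change of duplication over wild type for the 7 genes with all libraries (black, with 95% interval), without wild type replicate 2, with sex as a covariate and with the TEC and sense intronic level as a covariate. The intervals of Gabra4 (0.06 to 0.37) and Gabrb1 (-0.62 to -0.04) leave out 0, and with the covariate level Gabrb1 lies at 0.21.

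Fold changes of protein-coding genes also ran with exon length in these libraries. The median log2 fold change was 0.10 over 1416 tested genes with less than 2 kb of merged exons, -0.03 over 1917 genes with 6 to 8 kb and -0.13 over 1381 genes with 10 kb or more, of which 76.5% were negative. Gabrb1 belongs to the longest class and was lower than its median. Gabra4, with 6083 bases of exons, was on the opposite side of 0 from the median of its class. It lies close to the edge of the class of 4 to 6 kb, whose median was 0.0079.

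**Figure D5:**
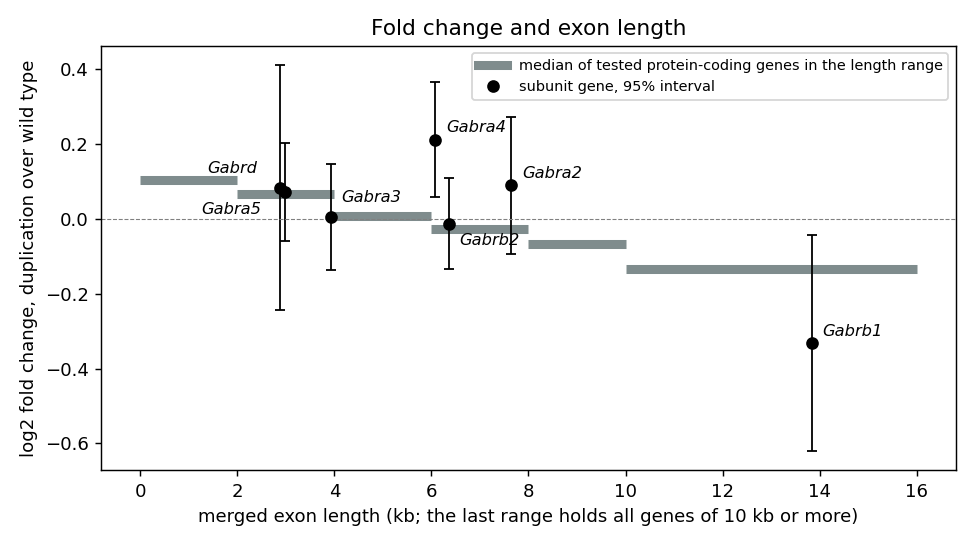
log2 fold change of duplication over wild type against merged exon length (kb). Points with 95% intervals are the 7 subunit genes, and grey bars are medians of tested protein-coding genes in 6 length ranges, which go from 0.10 in the shortest to -0.13 in the longest.

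No other gene of the receptor pathway lists passed in the main edgeR fit, with all libraries and the filter on low counts. Of 12 other GABA-A subunit genes 6 had enough counts to be tested, and 0 were called in either direction, with 3 positive and 3 negative values and a median log2 fold change of 0.04. Of these 6, 2 had every duplication library above every wild type library, where 11.7% of all tested genes did so. The same count had an edgeR unadjusted p under 0.05, where 19.2% of all tested genes did. Gabrg1, a gamma subunit, was at 0.07 ± 0.12, and Gabrg3 at -0.29 ± 0.13 on the log2 scale, a gene with 11934 bases of exons. Adjusted for the TEC and sense intronic level, Gabrg1 was at 0.06 and Gabrg3 turned to 0.29. Without wild type replicate 2, 2 of these 6 genes were called higher and 1 lower, in the fit that called 4.65% of all genes higher and 10.7% lower. Of 24 genes of receptor assembly, trafficking and clustering 0 were called, with 10 positive and 14 negative values and a median of -0.05. Shisa7, an auxiliary subunit of GABA-A receptors, was at -0.96 ± 0.29, Nlgn2, the neuroligin of inhibitory synapses, at -0.85 ± 0.27, and Kif21b, a kinesin that carries receptors, at -0.29 ± 0.10. In CPM, Shisa7 had 21.5, 31.3 and 36.7 in duplication libraries, against 68.7, 32.7 and 71.7 in wild type libraries. Wild type replicate 2 again lay among the duplication libraries. Adjusted for the TEC and sense intronic level, Shisa7 turned to 0.45, Nlgn2 to 0.44 and Kif21b to 0.02. Without a filter on low counts Shisa7 and Nlgn2 were called lower, as were 3.19% of all genes. Without wild type replicate 2, 2 of the 24 genes were called higher and 5 lower, beside 4.65% and 10.7% of all genes. Gphn, the gephyrin scaffold, was at 0.05 ± 0.07, and at -0.11 when adjusted for that level. Of 12 genes of GABA supply, chloride transport and GABA-B receptors 0 were called, with 10 negative values and a median of -0.12. Gabbr2, a GABA-B subunit, was at -0.28 ± 0.11 and Slc12a5, the chloride exporter KCC2, at -0.25 ± 0.11. Both turned sign when adjusted for that level, to 0.17 for Gabbr2 and 0.20 for Slc12a5. Slc6a13, a GABA transporter of meninges, was at 0.74 ± 0.30, and rose to 1.12 with the same adjustment. All adjusted values here are from the fit that could call no gene, and what the level accounts for was not tested. Without wild type replicate 2, 0 of these 12 genes were called higher and 2 lower, beside 4.65% and 10.7% of all genes.

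Cell type marker lists had 0 genes called in the main edgeR fit, with all libraries and the filter on low counts. Neuronal markers were abundant. The 8 pan-neuronal markers summed to 6738 to 7051 CPM in duplication and 6416 to 6671 CPM in wild type libraries, and the 6 astrocyte markers to 866 to 967 CPM in duplication and 751 to 871 CPM in wild type libraries. Excitatory neuron markers summed to 2070 to 2182 CPM in duplication and 2042 to 2562 CPM in wild type libraries, and inhibitory neuron markers to 391 to 403 CPM in duplication and 379 to 531 CPM in wild type libraries. Oligodendrocyte markers summed to 1189 to 1602 CPM in duplication and 1328 to 2287 CPM in wild type libraries. The 9 meningeal markers summed to 35.2 to 74.5 CPM in duplication and 22.6 to 35.5 CPM in wild type libraries, with a positive fold change for 9 of 9 and 4 called higher by DESeq2, which called 2.01% of all genes in either direction. Without a filter edgeR called 5 of the 9 higher, beside 173 of 26426 genes. Without wild type replicate 2 it called 2 of the 9 higher, beside 4.65% of all genes. DESeq2 also called 1 excitatory marker lower, Tbr1 at -0.63 (DESeq2 adjusted p = 0.0390). Of the 6 excitatory markers 5 were negative, and edgeR called 2 lower without a filter, beside 3.19% of all genes, and 4 lower without wild type replicate 2, beside 10.7% of all genes. Fold changes were positive for 6 of 6 astrocyte and 6 of 6 microglial markers and negative for 6 of 6 inhibitory and 6 of 6 oligodendrocyte markers. Striatal markers summed to 155 to 176 CPM in duplication and 158 to 194 CPM in wild type libraries, where Drd2 was under 1 CPM in each library, as was the choroid plexus marker Ttr. Thalamic markers summed to 114 to 147 CPM in duplication and 100.3 to 125 CPM in wild type libraries, most of it from Rora. Microglial markers summed to 344 to 359 CPM in duplication and 301 to 342 CPM in wild type libraries, and endothelial markers to 104 to 126 CPM in duplication and 104 to 114 CPM in wild type libraries. The part of these sums in the subunit values was not tested.

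Across the 6 libraries, log2 CPM of each gene was set against 9023 protein-coding genes with a mean of at least 10 CPM, as a description with 6 points that share genotype and library. Gabrb1 was most like Cbl (r = 0.998) and Helz (r = 0.997), genes that were at -0.54 and -0.64 on the log2 scale. Gabra4 was most like Azi2 (r = 0.993) and Timp3 (r = 0.992), and Gabra2 most like Cux2 (r = 0.990), a marker of upper cortical layers, and Fbxl16 (r = 0.984). For Gabra3 the nearest were Chst15 and Atp13a2 (r = 0.986 and 0.983), for Gabra5 Mtpap and Ube2s (r = 0.971 and 0.970), and for Gabrd Ddit4l and Ggact (r = 0.989 and 0.983). Gabrb2 had the weakest matches, Atg7 and C1qb at r = 0.941 and 0.920.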

How the data were processed

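RNA was measured in 6 libraries, 3 per genotype, made with a stranded total RNA kit after ribosomal depletion, per the labels' protocols. The authors deposited raw counts per gene, not normalized. The tools named are cutadapt, TopHat2 and HTSeq with build mm10, per the submitters' processing notes; for versions, annotation and strand setting, none is given by labels or headers. The 274806 values of the per-library tables equalled those of the joint table.

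The joint table has 45807 lines, 45801 names and 6 blanks at the end. The offset between names and counts rises at 6 breaks from 0 to 6, and names within 25 lines of a break, and 25 names turned into dates, were not used. Lines without a name held 0.902% to 0.948% of a library's counts and were left out. Of used names 91.8% were in GENCODE vM21, which gave positions and lengths.

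The comparison of genotypes used edgeR 4.0.16 under R 4.3.3 (TMM factors, filterByExpr by group, quasi-likelihood F-test, Benjamini-Hochberg adjusted p under 0.05), which tested 15403 genes. Log2 fold changes are duplication over wild type, with standard errors and 95% intervals derived from the F statistic. DESeq2 1.42.0 was an alternative. The code was tested on simulated data. Levels per kilobase are CPM divided by exon or coding length. Named were the 7 genes, list members with the 3 smallest p, and the 2 most correlated genes of each of the 7; individual values of some other subunit genes are not reported here. A few list genes, Gphn, Gabrg1, Tbr1, Drd2, Ttr and Rora among them, and the ends Slx1b and Spn of the segment were named after their values were seen. The 7 genes and the lists were chosen with earlier results of these data known. The labels do not state that libraries came from different animals. The Xist and Ddx3y counts set replicate 1 of each genotype apart in sex from replicates 2 and 3. Replicate 2 of each genotype also had more Ddx3y counts than replicate 3, and the sex covariate took both as female. Replicates 2 and 3 of a genotype may still share an animal. The p-values therefore reflect library-to-library spread, which may be technical in part. Counting error takes each read as a molecule, although PCR copies were not marked. Alternatives were other scaling factors and filters, DESeq2, the replicate number as a block, left-out libraries, sex or TEC level as a covariate and names as deposited.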

Additional observations from a re-analysis of the deposited data

How the results depend on the processing

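The call of 0 of the 7 genes did not change with other scaling factors, the stricter filter, DESeq2, the replicate block or sex. With the TEC and sense intronic level it was also 0, but the smallest edgeR adjusted p of any gene there was 0.9997. That fit could therefore call no gene. Names as deposited left too few counts to test 4 of the 7 and gave Gabra4 and Gabrd the counts of other lines. Its 0 is therefore no test of these genes. Leaving out 1 library gave 0 to 1 of the 7 higher (Gabra4) and 0 to 1 lower (Gabrb1), the upper end without wild type replicate 2. Gabrb1 was the 1 gene lower without a filter and without both libraries numbered 2. Over all genes, the counts of higher and lower calls were 173 and 843 without a filter, 6 and 1 with the replicate block, 46 and 239 with DESeq2, and 230 and 1090 without both libraries numbered 2. They were 0 to 731 and 0 to 1677 when 1 library was left out, the upper ends without wild type replicate 2.

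Of 115 alternative log2 fold changes of the 7 genes, 14 had the opposite sign, none past the threshold. With the TEC and sense intronic level these were -0.0333 for Gabra2, 0.21 for Gabrb1, 0.02 for Gabrb2 and -0.43 for Gabrd. Gabrb2 was at 0.0121 with upper-quartile factors, 0.0014 with library size only and 0.0135 without both libraries numbered 2, where Gabra3 was at -0.0280. Leaving out 1 library gave -0.0287 to 0.0474 for Gabra3, -0.0400 to 0.0088 for Gabrb2 and -0.0644 to 0.2303 for Gabrd. The cause of these changes was not tested. The share of Gabra4, Gabra5 and Gabrd kept its direction, with a difference of 0.75 to 3.67 percentage points over 10 alternatives, 1 of them, coding length, added after the data were seen.

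Deviations of same-numbered libraries correlated at 0.102, 0.063 and 0.311. Of the 6 other pairs 5 were negative (-0.011 to -0.282), and duplication replicate 1 with wild type replicate 2 was at 0.157, above its own number. Since 1 same-numbered pair was not over 0.1, the numbers were not taken to pair the libraries, although the Xist and Ddx3y counts follow the number. With the replicate block the log2 fold changes of Gabra4 and Gabrb1 were 0.21 and -0.33. Counting error was 4.1% of the lowest and 1.1% of the highest count of the 7 genes, and its part in the spread between libraries was not tested.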
